A study of Tupaia belangeri chinensis with 36 samples.

Results

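Caput miRNAs of the tree shrew were compared between the reproductive (R) and the non-reproductive (NR) season. The caput is the head of the epididymis, the duct in which sperm leaving the testis mature, and the samples were pieces of that tissue, not sorted cells. The comparison used 5 of the 36 samples of the series: CAPUT-R 1, 2 and 3, collected in mid-April 2024, and CAPUT-NR 1 and 3, collected in mid-December 2023. All came from sexually mature males of 1.5 to 2 years, with no treatment given in the labels. A sixth column, CAPUT-NR 2, was the mean of the other NR columns and was left out. Each season was collected at 1 time, so season and collection date cannot be told apart. The series also holds testis and cauda (tail of the epididymis) from both seasons, used here only to ask whether a caput change differed from theirs.

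miRNAs are short RNAs cut from the arms of a hairpin precursor, the 5p arm and the 3p arm. Loaded into an Argonaute protein, a miRNA pairs with messenger RNAs through its seed and lowers their translation and stability. In the epididymis they are made by the epithelium and the surrounding muscle and stroma, and vesicles from the epithelium are known in the mouse to carry some of them to passing sperm. The submitters named entries after their match in other species, so the roles given below are those known from mouse or human.

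The table held 1210 miRNA entries, of which 491 carried a mouse name and 719 a prefix that marks new entries. The 719 are called entries without a mouse name below, although the submitters matched 63 of them to a mouse miRNA. A count in a caput library was seen for 930 of the 1210 entries, 469 with a mouse name, and 444 had a count in all 5 libraries. The test covered the 534 entries that passed a filter on low counts, 331 of them mouse-named. Totals were 14756858, 8249969 and 11587799 counts in CAPUT-R 1, 2 and 3, and 11259767 and 7534831 in CAPUT-NR 1 and 3. Levels are CPM, counts scaled to a common library size, after TMM scaling, and changes are log2 differences, R minus NR, with their standard error (SE).

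The libraries of a season were not more alike than those of different seasons. Rank correlations over the tested entries ran from 0.803 (CAPUT-R 1 with CAPUT-R 2) to 0.878 (CAPUT-R 1 with CAPUT-R 3), with 0.845 between the NR libraries and 0.809 to 0.877 between seasons. On the first principal component, with 36.4% of the variance, CAPUT-R 1 and CAPUT-R 2 lay at opposite ends and the NR libraries between them. These libraries also had the extreme scaling factors, 0.823 and 1.26, and the extreme shares of counts on mouse-named entries, 83.8% and 95.2%. The leading changes are also given without both of them, where only CAPUT-R 3 remains for the R season, as values with no test.

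The 10 most abundant mouse-named miRNAs overlapped between the seasons. Under scaling by library totals, miR-101a-3p (with its copy miR-101c) had all R values below, and miR-29c-3p and miR-10a-5p all above. miR-101a-3p, known to act on the histone methyltransferase EZH2, led the mouse-named entries. It had 136425, 68371 and 119707 CPM in CAPUT-R 1, 2 and 3, and 133111 and 129666 CPM in CAPUT-NR 1 and 3. miR-101c differed from it by at most 0.00949% in any library, so the entries share their reads and count as 1 miRNA. CAPUT-R 2 was the low library, while the other 4 lay close together.

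miR-29c-3p, which acts on collagen messages, had 111548, 76752 and 92154 CPM in the R libraries, and 64081 and 85336 CPM in the NR libraries. The seasons overlapped, with the R mean 0.32 higher on the log2 scale (SE 0.26). miR-125b-5p ran from 64860 to 99444 CPM in R and stood at 91305 and 61567 CPM in NR. miR-21a-5p, abundant in many tissues, averaged 71593 ± 17175 CPM in R (SD, n = 3) and 85593 ± 15988 CPM in NR (SD, n = 2).

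miR-200b-3p, an epithelial miRNA that represses the factors ZEB1 and ZEB2, was the steadiest of these. It had 69476, 72003 and 69651 CPM in the R libraries, and 66766 and 71393 CPM in the NR libraries. The change was 0.03 (SE 0.16), with a 95% interval of -0.39 to 0.44. The R values lay within the span of the NR values or just above it.

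miR-148a-3p varied most among the 10 most abundant. It had 38174, 11108 and 19029 CPM in the R libraries, and 24725 and 25477 CPM in the NR libraries, so the R season held both the highest and the lowest value. miR-10b-5p and miR-10a-5p, encoded in the Hox clusters, showed the same order of R libraries. miR-10b-5p had 46635, 22354 and 32839 CPM in R, and 37821 and 30902 CPM in NR. miR-10a-5p had 25501, 14096 and 19061 CPM in R, and 18025 and 17879 CPM in NR. miR-29a-3p averaged 32131 ± 6400 CPM in R (SD, n = 3) and 33656 ± 4413 CPM in NR (SD, n = 2).

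**Figure D1:**
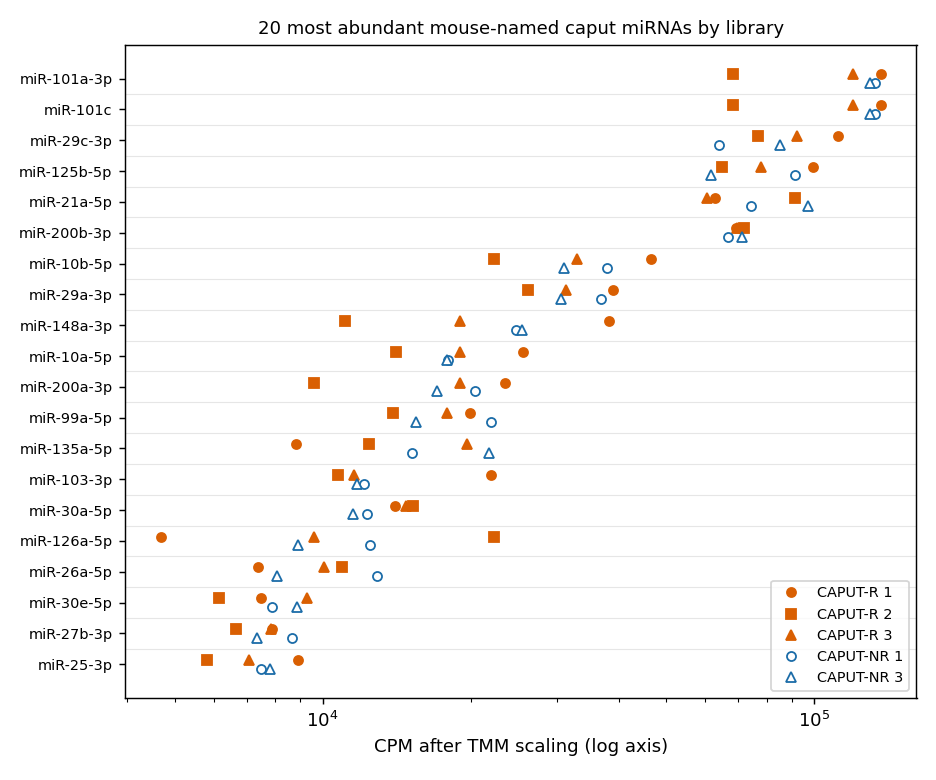
CPM after TMM scaling (log axis) of the 20 most abundant mouse-named entries, 1 row each, with the 3 R libraries (filled) above the 2 NR libraries (open). The seasons overlap for all of them but miR-30a-5p, and miR-126a-5p and miR-148a-3p are the most spread.

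The question was which caput miRNAs differ between the seasons. With edgeR's quasi-likelihood test and Benjamini-Hochberg adjustment, 0 of 534 entries (0%) passed an adjusted p of 0.05, and the smallest adjusted p was 0.307. An unadjusted p under 0.05 was reached by 11 entries higher in R (2.06% of those tested) and 13 lower (2.43%). Only 8 of these 24 carried a mouse name, 2 higher and 6 lower. The median change was 0.10 over all tested entries and 0.04 over the mouse-named ones. DESeq2, the tool that the design text names for the study, called 15 entries (2.81%), 11 higher and 4 lower in R, and 3 of them were mouse-named: miR-125a-5p, miR-30a-5p and miR-322-5p. Taking the libraries alone, all R values lay above all NR values for 68 entries (12.7%) and below them for 63 (11.8%). Under scaling by library totals these counts were 73 and 49, and with DESeq2 size factors 60 and 65.

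What the libraries could resolve depended on abundance. Of the 57 entries with a mean above 1000 CPM, 28 had a 95% interval that lay wholly within 1 log2 unit of no change, and their median SE was 0.284. Over mouse-named entries the median SE was 0.455 and over the others 1.69. A count of 0 calls with 3 against 2 libraries does not show that levels were equal.

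**Figure D2:**
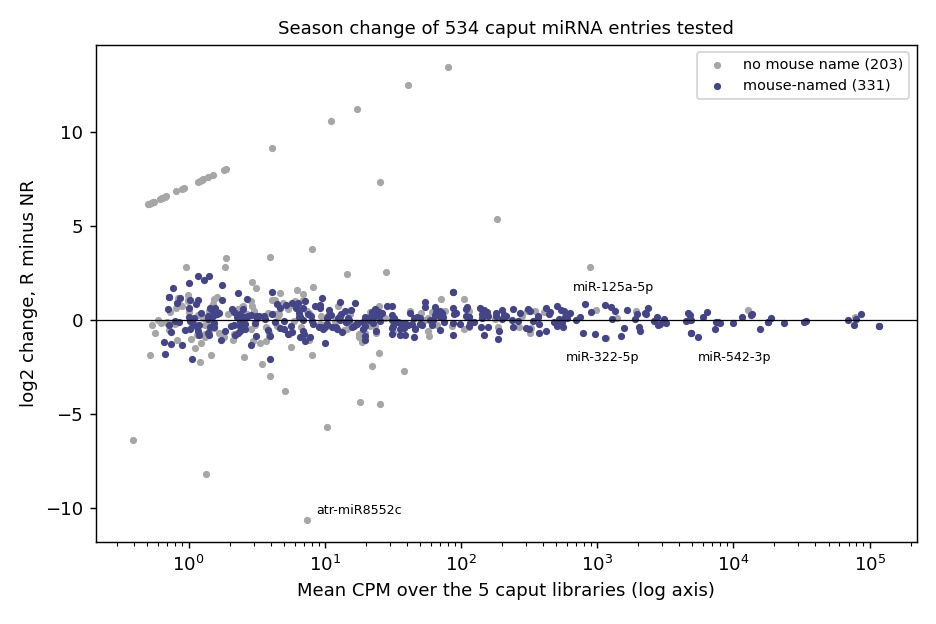
Change between seasons (log2, R minus NR) against mean CPM (log axis) for the 534 tested entries, mouse-named in dark and all others in grey. Mouse-named entries lie near 0, and the far values belong to entries without a mouse name, many at 0 counts in 1 season, where the fitted change depends on the prior count.

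miR-125a-5p had the clearest difference of the mouse-named entries. It is a relative of miR-125b and of lin-4 in the worm, and acts in cell differentiation. It had 1475, 1363 and 1308 CPM in the R libraries, and 715 and 863 CPM in the NR libraries. The 3 R values lay close together and all above both NR values, 1.75-fold on average, under each scaling. The log2 change was 0.81 (SE 0.19) with an unadjusted p of 0.00963 and an adjusted p of 0.428 in edgeR's quasi-likelihood test, and an adjusted p of 0.00519 in DESeq2. Without CAPUT-R 1 and 2 the change was 0.74.

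The other 7 entries chosen for the smallest p among those higher in R, with no overlap of the seasons and at least 10 CPM, all had an adjusted p of 0.775. miR-30a-3p had 1793, 1369 and 1446 CPM in R, and 1014 and 1137 CPM in NR. miR-143-3p, a miRNA of smooth muscle, had 6443, 8195 and 6798 CPM in R, and 5039 and 5469 CPM in NR. These were changes of 0.51 (SE 0.21) and 0.44 (SE 0.19) on the log2 scale, and under scaling by library totals the miR-143-3p values overlapped. let-7a-5p, which restrains growth and promotes differentiation, had 571, 754 and 604 CPM in R, and 454 and 456 CPM in NR.

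The other four were less abundant. miR-29b-2-5p had 336, 228 and 270 CPM in R, and 177 and 186 CPM in NR. miR-200b-5p, the minor arm of the miR-200b hairpin, had 526, 536 and 408 CPM in R, and 260 and 372 CPM in NR, a change of 0.63 (SE 0.28) where its major arm showed 0.03. miR-187-3p averaged 102 ± 10.7 CPM in R (SD, n = 3) and 65.0 ± 16.9 CPM in NR (SD, n = 2). miR-7a-5p averaged 124 ± 18.5 CPM in R (SD, n = 3) and 83.3 ± 4.75 CPM in NR (SD, n = 2).

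miR-322-5p, called miR-424 in human and known to slow the cell cycle, led the entries lower in R. It had 786, 764 and 977 CPM in the R libraries, and 1888 and 1324 CPM in the NR libraries. Every R value lay below both NR values under each scaling, and the log2 change was -0.93 (SE 0.25). The unadjusted p was 0.0147 and the adjusted p 0.564 in edgeR's quasi-likelihood test, against an adjusted p of 0.0364 in DESeq2. An entry without a mouse name, matched by the submitters to human miR-15a-5p, followed it within 1.24% in every library and counts as the same reads. The change was -0.62 without CAPUT-NR 1, -1.24 without CAPUT-NR 3 and -0.70 without CAPUT-R 1 and 2.

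miR-542-3p had 5305, 3145 and 3708 CPM in the R libraries, and 8125 and 7134 CPM in the NR libraries. It was the most abundant of the entries lower in R chosen by the same rule, with a change of -0.91 (SE 0.28) and an adjusted p of 0.712 in edgeR's quasi-likelihood test. miR-450a-5p had 14.6, 12.3 and 14.8 CPM in R, and 35.8 and 20.96 CPM in NR. miR-450b-3p had 4.53, 5.77 and 4.50 CPM in R, and 10.7 and 10.3 CPM in NR. Both lay about as far below as miR-542-3p, with changes of -1.03 (SE 0.38) and -1.08 (SE 0.36). Without CAPUT-NR 1 the change of miR-450a-5p was -0.56.

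miR-196a-5p, a Hox cluster miRNA that acts on HOXB8, had 723, 797 and 784 CPM in R, and 1500 and 1029 CPM in NR. The log2 change was -0.72 (SE 0.23), with an adjusted p of 0.775 in edgeR's quasi-likelihood test, and -0.39 without CAPUT-NR 1. miR-199a-3p, a miRNA of mesenchyme, had 3460, 4205 and 4017 CPM in R, and 7857 and 4688 CPM in NR. CAPUT-NR 1 stood far above the other 4 libraries, and the change of -0.69 (SE 0.28) was -0.23 without it and -1.09 without CAPUT-NR 3. miR-199b-3p held identical counts, and under scaling by library totals the seasons overlapped. miR-137-3p averaged 6.56 ± 2.13 CPM in R (SD, n = 3) and 15.2 ± 3.96 CPM in NR (SD, n = 2). miR-32-5p averaged 33.97 ± 7.99 CPM in R (SD, n = 3) and 62.4 ± 10.2 CPM in NR (SD, n = 2).

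**Figure D3:**
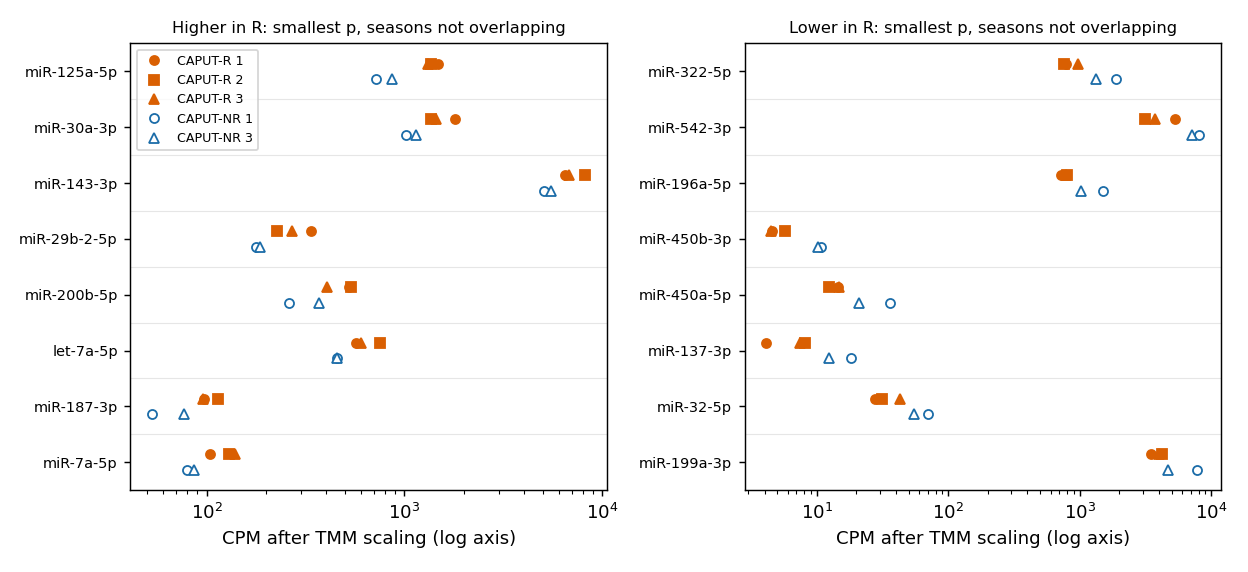
CPM after TMM scaling (log axis) by library of the 8 mouse-named entries with the smallest p on each side, with R libraries (filled) above NR libraries (open). The panels hold only entries whose seasons do not overlap, and all 16 had an adjusted p above 0.05 in edgeR's quasi-likelihood test, while DESeq2 called miR-125a-5p and miR-322-5p.

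Several of these miRNAs come from neighbouring genes, which are often transcribed as 1 primary RNA. In the RefSeq annotation of the tree shrew assembly TupChi_1.0, 177 miRNA genes were listed, and 188 tested mouse-named entries matched one. Genes no more than 10000 bases apart formed 26 runs, 23 with a tested entry. The run of MIR450A-1, MIR450A-2, MIR542, MIR503 and MIR424 had the lowest median change of the 23, -0.92. Its 4 tested entries, miR-542-3p, miR-322-5p, miR-542-5p and miR-450a-5p, were all lower in every R library than in either NR library, and 3 of them had an unadjusted p under 0.05. The fourth, miR-542-5p, had 148, 144 and 135 CPM in R, and 178 and 190 CPM in NR, and overlapped under scaling by library totals. The run was singled out after its values were seen, and miR-542-3p and miR-542-5p come from 1 hairpin. Over all tested entries, 11.8% had all R values below all NR values. An unadjusted p under 0.05 in edgeR's quasi-likelihood test with a lower level in R was reached by 2.43%.

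The run of MIR99B, MIRLET7E and MIR125A went the other way, with a median of 0.50 over 5 tested entries. It was not the highest. The run of MIR193B, MIR365A-1 and MIR365A-2 had a median of 1.72, and that of MIR192 and MIR194 0.672. MIR221 with MIR222 had 0.535, and MIR29C with MIR29B-1 0.52. The MIR99B run too was singled out after its values were seen, and it holds miR-125a-5p, chosen above for its small p. miR-99b-5p had 1872, 1177 and 1396 CPM in R, and 684 and 1134 CPM in NR, values that overlapped with DESeq2 size factors. let-7e-5p had 77.9, 75.4 and 64.1 CPM in R, and 57.2 and 51.2 CPM in NR. With miR-125a-5p these made 3 entries with all R values above all NR values (12.7% of all entries did so). The run's let-7e-3p, below 4 CPM, had all R values below. In the run of MIR17, MIR19A, MIR20A, MIR19B-1 and MIR92A-1, known for promoting proliferation, 7 of 8 entries had negative changes (median -0.46) and miR-92a-3p a positive one of 0.20 (SE 0.19). miR-19b-3p, counted with that run, had 444, 664 and 822 CPM in R, and 1029 and 995 CPM in NR. MIR19B-2 and MIR92A-2 lie in another run, so the reads of miR-19b-3p and miR-92a-3p cannot be assigned to either run.

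Of 30 lists of miRNA families and cell type markers, 28 had a tested member, 211 entries in all. With edgeR's quasi-likelihood test 0 members of each list passed the adjusted threshold, while DESeq2 called miR-125a-5p, miR-30a-5p and miR-322-5p. Members that hold the same reads were counted once. Scaling by library totals moved the median of all entries to 0.17, and DESeq2 size factors to 0.09. The let-7 and miR-98 list had 11 of 15 members with positive changes, a median of 0.27 beside 0.10 over all entries, and 6 members with all R values above all NR values (12.7% of all entries did so). The most abundant, let-7f-5p, had 2419, 2773 and 2247 CPM in R, and 1915 and 1990 CPM in NR. let-7b-5p had 823, 601 and 433 CPM in R, and 431 and 427 CPM in NR, so CAPUT-R 3 barely cleared the NR libraries.

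The miR-30 list had 7 of 10 members with positive changes, a median of 0.19 and 4 members with all R values above, again beside 12.7% of all entries. miR-30a-5p had 14001, 15236 and 14761 CPM in R, and 12311 and 11504 CPM in NR, a change of 0.30 (SE 0.16), with overlap under scaling by library totals. Its adjusted p was 0.778 in edgeR's quasi-likelihood test and 0.0185 in DESeq2. The miR-29 list had 5 of 7 positive changes and a median of 0.34, with 4 members with all R values above, beside the same 12.7%. miR-29b-3p among them had 1849, 2397 and 2188 CPM in R, and 1579 and 1814 CPM in NR.

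The miR-10 and miR-196 list had 6 of 7 negative changes and a median of -0.29. Both abundant major arms of miR-10 overlapped between seasons, while miR-196b-5p had 154, 144 and 187 CPM in R, and 216 and 258 CPM in NR. The miR-15, miR-16, miR-195, miR-322 and miR-497 list had 8 of 10 negative changes and a median of -0.25. Its 5p members share a seed that acts on cyclins, and these held both positive changes, miR-15a-5p at 0.25 and miR-15b-5p at 0.15. All its 3p members had negative changes. Its most abundant member, miR-16-5p, had 2601, 3653 and 2952 CPM in R, and 3620 and 3205 CPM in NR, so the seasons overlapped there. The miR-17 to 92 and related clusters had 13 of 18 negative changes and a median of -0.33, but their abundant members miR-25-3p and miR-93-5p overlapped.

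The miR-200 and miR-141 list had 7 of 10 positive changes and a median of 0.04. miR-200b-3p, miR-200a-3p, miR-429-3p, miR-141-3p and miR-200c-3p, its 5 most abundant members, all had changes smaller than their SE. miR-200a-5p had 3842, 2308 and 2035 CPM in R, and 1421 and 2110 CPM in NR, a change of 0.63 (SE 0.38). The miR-181 list had 5 of 8 and 0.09, and the 28 members from the DLK1-DIO3 imprinted region had 13 positive changes and a median of -0.08, which turned to 16 and 0.06 under scaling by library totals. The miR-148 and miR-152, miR-26, and miR-23, miR-27 and miR-24 lists had medians between -0.16 and -0.06. Of these, the first and the last turned positive under library totals, at 0.03 and 0.06. The miR-101 list had 3 of 3 negative changes and a median of -0.33, with overlap in each. The miR-212 and miR-132 list had 4 of 4 negative changes, and 2 of 4 under library totals. miR-135a-5p, at 8822, 12437 and 19641 CPM in R and 15228 and 21838 CPM in NR, was abundant in caput. On the joint scale of both tissues it had at least 9693 CPM in each caput library and at most 609 CPM in any cauda library. The miR-888 cluster, known from the human epididymis, and the miR-506 to miR-514 family each had 0 mouse-named entries in the table. Entries with the prefix for new entries were not counted in these lists, among them one matched to mml-miR-510-3p, at 133, 33.2 and 94.8 CPM in R and 47.9 and 75.5 CPM in NR.

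Markers of other cell types gave summed levels that lay apart by season in part, though 0 of their members passed edgeR's test, adjusted or not. The leukocyte list (miR-142, miR-146, miR-150, miR-155 and miR-223) had 7 of 7 negative changes and a median of -0.40. Its summed level was 1384, 2052 and 2905 CPM in R, and 3259 and 3042 CPM in NR, and miR-142a-3p made up most of it. That miRNA had 1048, 1612 and 2486 CPM in R, and 2589 and 2581 CPM in NR, so CAPUT-R 3 was close to the NR libraries. Its change of -0.59 (SE 0.40) was -0.37 without CAPUT-R 1, -0.94 without CAPUT-R 3 and -0.04 without CAPUT-R 1 and 2. The mesenchyme list, miR-199 and miR-214, had 5 of 5 negative changes and a median of -0.60, with summed levels of 3776, 4518 and 4416 CPM in R, and 8532 and 5085 CPM in NR. The smooth muscle list, miR-143 and miR-145, had 4 of 4 positive changes and a median of 0.34. Its sums were 6837, 8814 and 7240 CPM in R, and 5402 and 5871 CPM in NR. None of these 3 sums overlapped between seasons, while under scaling by library totals the mesenchyme and smooth muscle sums did and the leukocyte sums did not. Among the 28 lists with a tested member, the let-7 and miR-98 and the miR-30 sums also lay apart after TMM scaling. The miR-30 sums overlapped under scaling by library totals and with DESeq2 size factors. The sums of all other lists overlapped after TMM scaling. Of all tested entries taken singly, 12.7% had all R values above all NR values and 11.8% all below, so sums lying apart were not unusual. In bulk tissue, fewer cells of a type and less RNA per cell cannot be told apart, and the part of cell makeup in the changes of other miRNAs was not tested.

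In the endothelial, erythrocyte and striated muscle lists the highest sum was that of CAPUT-R 2. The endothelial list led by miR-126 summed to 6545, 32967 and 12761 CPM in R, and 17077 and 12214 CPM in NR, with CAPUT-R 2 highest and CAPUT-R 1 lowest. The erythrocyte list, miR-144, miR-451 and miR-486, had 4 of 4 positive changes and a median of 1.00, with sums of 71.8, 334 and 89.3 CPM in R, and 60.8 and 75.9 CPM in NR. Its defining member miR-451a had 5.52, 80.2 and 17.1 CPM in R, and 21.8 and 17.98 CPM in NR, so the high value was that of CAPUT-R 2. The most abundant member, miR-486a-5p, had 62.6, 223 and 64.2 CPM in R, and 33.2 and 50.4 CPM in NR. CAPUT-R 2 was highest there too, but the seasons did not overlap under each scaling. Its change was 1.48 (SE 0.75), with an adjusted p of 0.775 in edgeR's quasi-likelihood test. No other member of the list was without overlap. The striated muscle list (miR-1, miR-133 and miR-206) had 3 of 5 positive changes (5 of 5 under library totals) and overlapped, at 218 to 736 CPM in R, and 496 and 371 CPM in NR.

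The miR-34 and miR-449 list is best known from germ cells in and after meiosis and from ciliated cells, which cannot be told apart here. It had 4 of 6 positive changes (6 of 6 under library totals) and a median of 0.35, with sums of 487, 638 and 661 CPM in R, and 604 and 353 CPM in NR. miR-34c-5p alone had 401, 517 and 516 CPM in R, and 499 and 265 CPM in NR. The seasons overlapped, since CAPUT-NR 1 lay within the R range. miR-34c-3p, under 10 CPM, was the only member with all R values above, at 5.68, 7.51 and 5.77 CPM, and 2.67 and 4.46 CPM in NR.

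**Figure D4:**
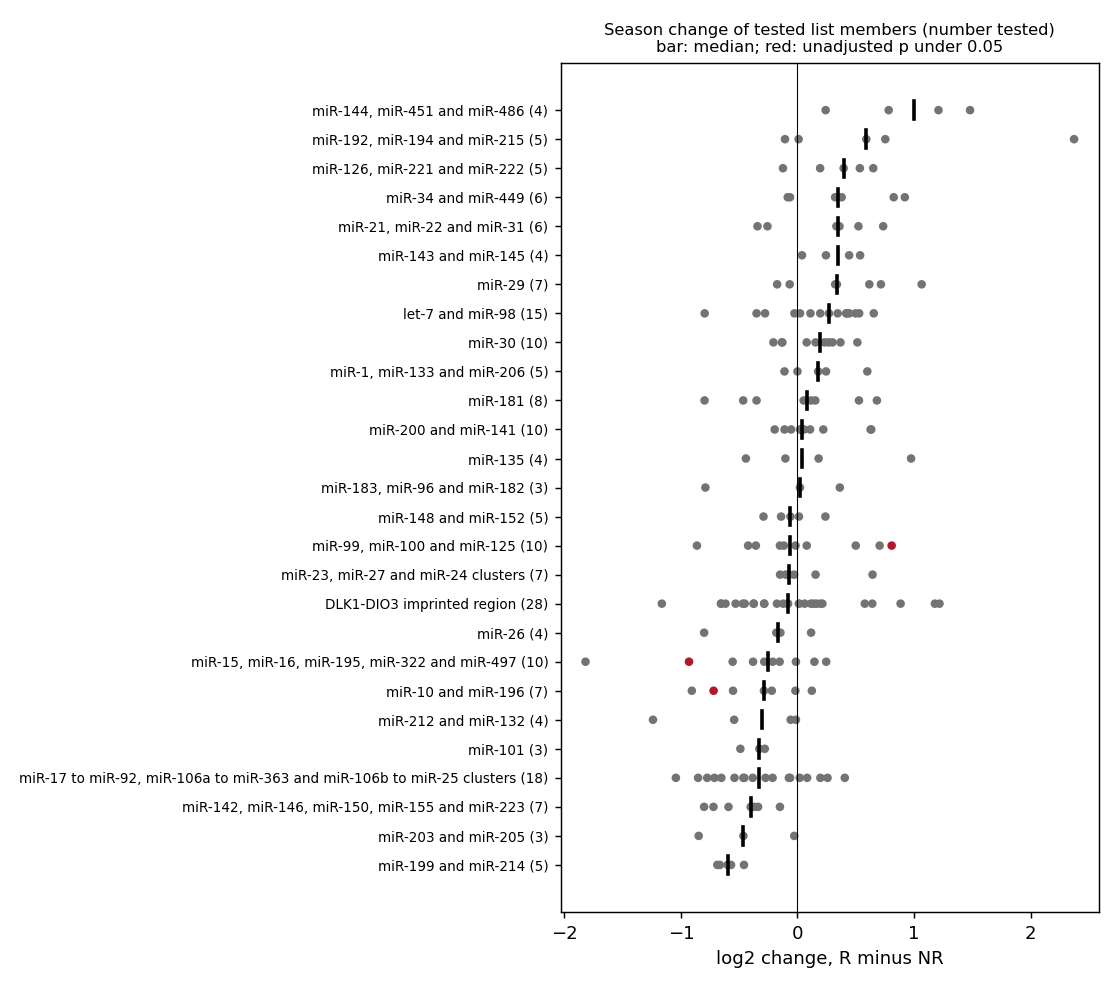
Change between seasons (log2, R minus NR) of each tested member (point) of the lists with 3 or more tested members, with the list's median as a bar and an unadjusted p under 0.05 in red. Members that hold the same reads are shown once, and the medians run from -0.60 for miR-199 and miR-214 to 1.00 for miR-144, miR-451 and miR-486.

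The choice of hairpin arm was steady. For 36 hairpins both arms reached a mean of 10 CPM over the 5 libraries. The same arm was ahead in all 5 libraries for each of the 36, the 5p arm in 20 and the 3p arm in 16. Among them, miR-199a and miR-199b share the counts of their 3p arm, so these ratios are not separate. The median absolute difference of the log2 ratio of 5p to 3p between seasons was 0.326, and 0 hairpins differed by more than 1. For 12 hairpins (33.3%) the R and NR ratios did not overlap, 11 with a higher 5p share in R. For miR-100 the log2 ratio was 6.98, 7.15 and 6.76 in R, and 6.40 and 6.51 in NR. For miR-200b it was -7.05, -7.07 and -7.42 in R, and -8.00 and -7.59 in NR. miR-30e was the exception, at 1.31, 1.78 and 1.87 in R, and 2.15 and 2.14 in NR.

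**Figure D5:**
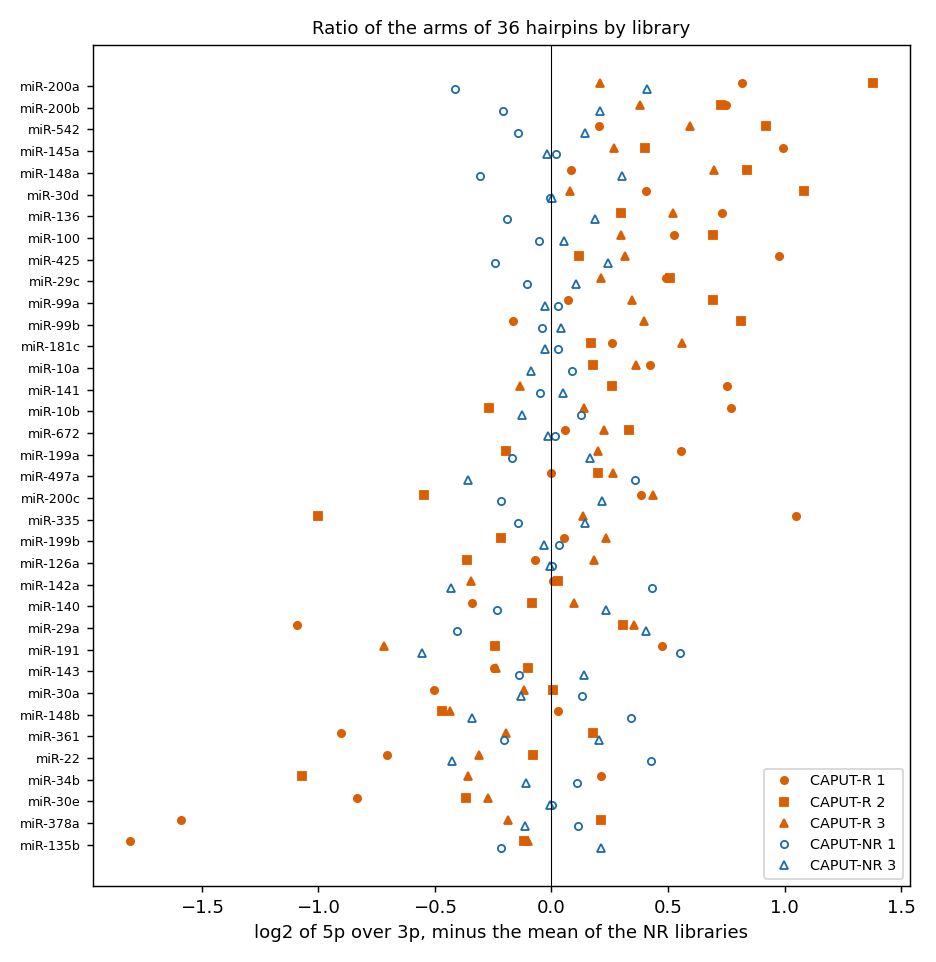
Log2 ratio of the 5p to the 3p arm of 36 hairpins, shown as the distance from the mean of the NR libraries, with R libraries (filled) and NR libraries (open). Ratios of most hairpins overlap between seasons, and CAPUT-R 1 and CAPUT-R 2 give the most distant points.

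Entries without a mouse name held the extreme changes and were the least steady. None of the mouse-named entries had 0 counts in one library and at least 10 CPM in another of the same season, but 28 of the other tested entries did. All 29 tested entries with 0 counts throughout one season carried the prefix for new entries, some of them matched to a mouse miRNA. Of these, 26 were at 0 in NR and 3 at 0 in R. NR had 2 libraries and R had 3, so 0 counts throughout were easier to reach in NR and these numbers cannot be compared directly. Of the entries under the prefix for new entries, the one matched to atr-miR8552c had 0 counts in the 3 R libraries, and 16.5 and 20.6 CPM in the NR libraries. It was at least 212-fold lower in R against a floor of 3 counts over the group. In cauda its only value above 0 was 4.46 CPM in CAUDA-R 1, and it was at 0 in the testis libraries.

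The one matched to mml-miR-7199-5p was low but present in R, at 0.659, 1.25 and 0.594 CPM, against 9.94 and 13.1 CPM in NR, a change of -3.77 (SE 0.54). The one matched to bmo-miR-3249 had 20.02, 30.99 and 4.50 CPM in R and 0 counts in NR, at least 113-fold higher in R. These 3 entries were picked after their values were seen, so no p-value of the caput comparison is given for them. All 3 were among the entries that DESeq2 called, but those calls rest on the same libraries and add no support. The entries with 0 counts throughout R or NR passed the filter on low counts only through the other season. The most abundant entry without a mouse name, matched to aca-miR-5435b-3p, had 155957, 26376 and 64941 CPM in R, and 68677 and 75169 CPM in NR, which spans the whole range within the R season. Names that refer to distant species are the submitters' nearest match and say nothing of the origin of these reads.

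Whether caput changes differed from those of other tissues was tested as an interaction. These fits share the caput libraries with the comparison above and with each other. Between caput and cauda, 0 of 620 entries (0%) passed, and an unadjusted p under 0.05 was reached by 14 with a higher change in caput (2.26%) and 21 with a lower one (3.39%). DESeq2 called 13, and the smallest adjusted p in edgeR was 0.0945.

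Among mouse-named entries, the smallest p with a higher change in caput was that of let-7c-5p. On the scale of that fit it had 709, 498 and 519 CPM in CAPUT-R, and 429 and 442 CPM in CAPUT-NR. In the cauda it had 321, 313 and 329 CPM in CAUDA-R, and 604, 641 and 395 CPM in CAUDA-NR. Neither tissue's seasons overlapped, and they lay in opposite directions, a difference of changes of 1.17 (SE 0.33) with an adjusted p of 0.668 in edgeR's quasi-likelihood test. miR-30a-3p, let-7f-5p and let-7b-5p followed, with differences of 0.67, 0.61 and 0.83.

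On the other side stood miR-182 and its cluster partners miR-183 and miR-96, known from sensory and other epithelia. miR-182-5p had 6879, 3360 and 6149 CPM in CAPUT-R, and 5265 and 5616 CPM in CAPUT-NR. In the cauda it had 9953, 11255 and 18258 CPM in CAUDA-R, and 3565, 5023 and 5040 CPM in CAUDA-NR. The change was 0.01 in caput and 1.53 in cauda, and the difference of -1.53 (SE 0.47) had an adjusted p of 0.668 in edgeR's quasi-likelihood test. miR-96-5p and miR-183-5p differed by -1.61 and -1.23, and miR-181c-3p, which had the smallest p on this side, by -1.10 (SE 0.32). DESeq2 called only miR-181c-3p of the mouse-named entries, with an adjusted p of 0.0488. For miR-125a-5p and miR-322-5p the differences were 0.16 (SE 0.28) and -0.47 (SE 0.43), with unadjusted p of 0.591 and 0.297 in edgeR's quasi-likelihood test.

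Between caput and testis, 0 of 677 entries (0%) passed, with 20 (2.95%) higher and 7 (1.03%) lower at an unadjusted p under 0.05. DESeq2 called 14. The smallest adjusted p in edgeR, 0.0721, was that of the entry matched to mml-miR-7199-5p. This entry was also picked above by its caput values, and the fit reuses those libraries. On the scale of that fit it had 0.846, 1.51 and 0.765 CPM in CAPUT-R, and 12.2 and 15.5 CPM in CAPUT-NR. In the testis it had 14.3, 102 and 234 CPM in TESTIS-R, and 1.54 and 1.56 CPM in TESTIS-NR, so the tissues lay in opposite directions.

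Of the mouse-named entries, miR-574-3p had 15.96, 18.9 and 14.2 CPM in CAPUT-R, and 22.2 and 9.30 CPM in CAPUT-NR. In the testis it had 0.855, 0.922 and 1.40 CPM in TESTIS-R, and 12.6 and 10.3 CPM in TESTIS-NR. The change was 0.05 in caput and -3.42 in testis, and the difference of 3.47 (SE 0.88) had an adjusted p of 0.464 in edgeR's quasi-likelihood test and 0.00271 in DESeq2. miR-181a-2-3p, miR-378a-3p and miR-133b-3p differed the same way, by 3.11, 2.43 and 4.24, and DESeq2 called the first of them (adjusted p = 0.0164).

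Lower changes in caput than in testis were led by miR-19a-3p, of the MIR17 run. It had 57.6, 77.7 and 122 CPM in CAPUT-R, and 133 and 147 CPM in CAPUT-NR. In the testis it had 751, 1130 and 1309 CPM in TESTIS-R, and 458 and 484 CPM in TESTIS-NR. In neither tissue did the seasons overlap, and the difference was -1.88 (SE 0.56, adjusted p = 0.862 in edgeR's quasi-likelihood test and 0.0231 in DESeq2). miR-19b-3p, miR-181c-3p and miR-34c-3p differed by -1.43, -2.09 and -2.82, and DESeq2 called miR-19b-3p (adjusted p = 0.0231).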

How the data were processed

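Small RNA libraries were sequenced as single reads of 50 nt from RNA with an integrity number of at least 7, per the labels' protocols. The authors deposited raw counts per miRNA entry with no normalization. Processing used featureCounts and bedtools, per the submitters' processing notes. The aligner, versions and build were not given in the sources used here. Of the 18 deposited columns 2 (CAPUT-NR 2 and TESTIS-NR 2) equalled the mean of the other 2 of their group at every entry, within 0.5 counts. In the 16 other columns at most 2.55% of entries with 10 or more counts did so. Both columns were left out.

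Counts were tested with edgeR 4.0.16 in R 4.3.3 with filterByExpr and TMM scaling (quasi-likelihood test, Benjamini-Hochberg adjustment over all tested entries, threshold 0.05), which was checked on simulated data. Alternatives used DESeq2 1.42.0, other scalings and filters, a replicate block, and leaving out each library. The design text calls the samples biological replicates, and whether each is 1 animal is not given, so p-values measure the spread between these samples. With 3 against 2 libraries, an exact permutation test of a single entry could not pass the threshold and was not used. No molecular identifiers are named in the labels, so floors cover only counting error. Mouse-named entries were named by rule: the 10 highest means, the 8 smallest p in each direction without overlap of the seasons and with at least 10 CPM in the higher season, the most abundant and the smallest p member of lists, and the 4 smallest p in each direction of an interaction. The members and lists were chosen with earlier results of these data known. Near-identical entries had counts within 10% in each library. Sequences of the miRNAs were not used here.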

Additional observations from a re-analysis of the deposited data

How the results depend on the processing

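The count of caput entries called between seasons was 0 in the main test and 0 under each alternative scaling, filter, fold, list of entries and model run, with 2 exceptions: DESeq2 called 15, and keeping the averaged columns as replicates called 3. Leaving out each library in turn gave 0 to 0 calls. Counting copies of any name once and leaving out CAPUT-R 1 and 2 together were chosen after seeing the data, and the second leaves 1 R library and says nothing of stability. For caput minus cauda the count of 0 became 13 with DESeq2 and 1 with the averaged columns, and 0 to 1 with a library left out (1 without CAPUT-NR 3 and 1 without CAPUT-R 2). For caput minus testis it became 1 with library totals, 14 with DESeq2 and 6 with the averaged columns, and 0 to 2 with a library left out (2 without TESTIS-NR 1 and 1 without TESTIS-R 1). The cause was not tested. An averaged column adds no measurement and lowers the spread by its construction.

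Over 77 values of single entries and 1423 alternative fits of them, 10 passed the threshold that the main value had missed, and 54 had the opposite sign to the main value. In 56 of the 77 the sign held throughout. Part of the 77 were chosen for a small p or for seasons without overlap, which favours a kept sign. The alternatives also reuse the same libraries. Abundant entries with changes near 0, such as miR-10b-5p, took either sign.

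Whether replicate numbers pair the samples could not be decided. Deviations of same-numbered libraries correlated at -0.159 (number 1) and -0.279 (number 3). The deviations of the NR libraries from their mean are mirror images of each other. Against the NR library of the other number the same values therefore returned with the opposite sign, 0.159 and 0.279. With a replicate block, which keeps only numbers 1 and 3, 0 caput entries were called, 12 had an unadjusted p under 0.05, and the smallest adjusted p was 0.803.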
